A study of Mus musculus with 7 samples.

Results

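The 10 genes described here encode enzymes of glycolysis: the hexokinase gene Hk2, the glucose-6-phosphate isomerase gene Gpi1, the phosphofructokinase genes Pfkl, Pfkm and Pfkp, the aldolase gene Aldoa, the phosphoglycerate mutase gene Pgam1, the enolase gene Eno1, the pyruvate kinase gene Pkm and the lactate dehydrogenase gene Ldha. They were chosen by name as enzymes of the pathway, but with earlier results of these data known. Counts over the 10 are therefore descriptions and not an independent test. All 10 were found by Entrez identifier among the 29517 genes of the deposited count table. Messenger RNA was sequenced from inguinal white adipose tissue, the subcutaneous fat of the groin, in 3 libraries of the genotype TM4SF5-/- (KO) and 4 libraries of the genotype Wild-type (WT). All 7 samples came from untreated C57BL/6 mice on standard chow. Not given in the sources used here were sex, age, litter, and how or in which cells Tm4sf5 was removed. Libraries are called by their labels, so that KO 3 is the library labelled KO replicate 3.

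Glycolysis turns glucose into pyruvate in the cytosol. Hexokinase traps glucose as glucose 6-phosphate, phosphofructokinase commits it to the pathway, and pyruvate kinase and lactate dehydrogenase act at its end. Most steps have several isoforms whose genes are used to different degrees in liver, muscle, brain and fat. In white adipocytes the pathway supplies the glycerol backbone of triglyceride and carbon for fatty acid synthesis.

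Library totals were 49775077, 50704542 and 50429520 counts in KO 1 to KO 3, and 55717495 to 60241436 counts in the WT libraries. Levels are given as CPM, counts scaled to a common library size after edgeR's TMM normalization. The TMM factors were 0.798 to 0.954 in KO and 1.06 to 1.16 in WT, so this scaling raised KO values relative to WT values. The least counted of the 10 genes, Pfkm, had 1723 counts or more in every library, so counting error was small beside the spread between libraries. Tm4sf5, the targeted gene, had 7, 6 and 17 counts in KO 1 to KO 3, against 33, 45, 47 and 20 counts in WT 1 to WT 4. Every raw KO count was thus below every raw WT count. In TMM-scaled CPM the groups overlapped, at 0.353 CPM in KO 3 and 0.322 CPM in WT 4. Scaled levels of Tm4sf5 alone therefore do not separate the labelled genotypes. Its log2 fold change was -1.35 (standard error 0.50, adjusted p = 0.177 by edgeR). Muscle markers stood high in WT 4 and WT 2, and results that rest on those libraries are given with and without them.

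Most of the glycolytic enzyme genes had higher values in KO fat than in WT fat, without passing the adjusted threshold. In TMM-scaled CPM, the genes Gpi1, Pfkl, Aldoa, Pgam1, Eno1, Pkm and Ldha had their 3 KO values above all 4 WT values. Their log2 fold changes of KO over WT lay between 0.63 and 1.02, while Hk2, Pfkm and Pfkp overlapped between the groups. By edgeR's quasi-likelihood test 7 of the 10 genes had an unadjusted p under 0.05 and were higher in KO, where 12.3% of the 19185 genes tested did so, and 0 were lower, where 9.51% did. With total counts alone in place of TMM, 3 of the 10 were higher and 0 lower at that p, where 3.62% of all genes were higher and 25.4% lower. Values without overlap and higher in KO were found for the same 7 of 10, against 11.4% of all genes tested, and lower ones for 0 of 10, against 8.92%. This separation rests on the TMM scaling for most of them. Over library totals alone KO 2 lay below WT 2 for Gpi1, Aldoa, Pgam1, Pkm and Ldha. Aldoa, for example, had 116384 of 50704542 counts in KO 2 and 158543 of 57067052 in WT 2. The median log2 fold change of the 10 genes was 0.76, and that of all genes tested was -0.04. For the 13 other glycolytic genes tested it was 0.19. None of the 10 passed at an adjusted p under 0.05, the main threshold. The smallest edgeR adjusted p among them was 0.0967, for Pgam1.

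At that threshold edgeR called 0 of the 19185 genes, 0% of those tested, while 4187 genes had an unadjusted p under 0.05. DESeq2 called 2120 genes, 11.1% of those tested, and limma-voom called 1. Among the 10 genes DESeq2 called 6 as higher (Gpi1, Pfkl, Aldoa, Pgam1, Eno1 and Ldha), against 6.29% of all genes called higher by that tool, and 0 as lower, against 4.76%. The gene called by limma-voom, 0.00521% of those tested, was not among the 10. Since the tools differ, the values of each library are given for each gene below.

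**Figure D1:**
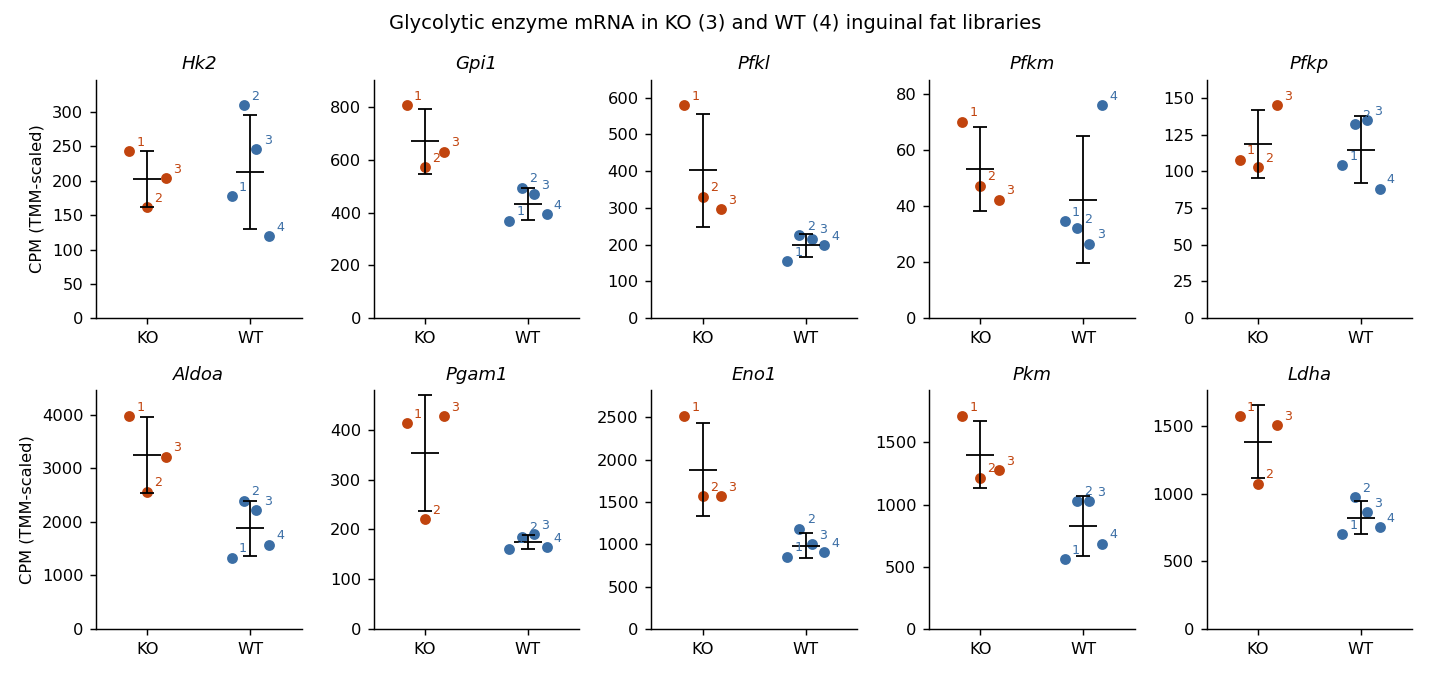
Level of each glycolytic enzyme gene (CPM, linear axis from 0) in KO libraries (left, n = 3) and WT libraries (right, n = 4). Points are libraries with their replicate number, and bars show the mean and SD. The KO points of Gpi1, Pfkl, Aldoa, Pgam1, Eno1, Pkm and Ldha lie above all WT points, while those of Hk2, Pfkm and Pfkp overlap with them.

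The levels spanned a wide range. Divided by the length of the principal annotated mRNA, Aldoa was highest, with 2153 ± 469 CPM per kb in KO (SD, n = 3) and 1243 ± 336 in WT (SD, n = 4). Eno1 followed with 929 ± 271 CPM per kb in KO and 486 ± 71.3 in WT, and Ldha with 874 ± 171 in KO and 519 ± 76.7 in WT. Eno1 and Ldha did not differ from each other beyond their spread, and their order differed between the groups. Pkm came next with 576 ± 111 CPM per kb in KO and 340 ± 98.7 in WT, then Gpi1 with 232 ± 42.4 in KO and 150 ± 20.9 in WT, and Pgam1 with 199 ± 65.3 in KO and 98.6 ± 8.29 in WT. The hexokinase and phosphofructokinase genes were the lowest of the 10. Pfkl had 108 ± 41.4 CPM per kb in KO and 53.2 ± 8.33 in WT, Hk2 36.8 ± 7.36 in KO and 38.7 ± 15.1 in WT, Pfkp 28.6 ± 5.52 in KO and 27.6 ± 5.45 in WT, and Pfkm 18.5 ± 5.17 in KO and 14.7 ± 7.89 in WT. The spreads of Hk2 and Pfkp overlapped in both groups.

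At the entry into the pathway Hk2 did not separate the groups. Hk2 (Entrez 15277, chr6:82725025-82774454 of GRCm38) encodes hexokinase 2, the insulin-regulated form of muscle and fat. It had 243, 162 and 204 CPM in KO 1 to KO 3, against 178, 310, 246 and 119 CPM in WT 1 to WT 4. The WT libraries alone covered the whole KO range. Its log2 fold change was -0.07 (standard error 0.32, adjusted p = 0.917 by edgeR). The sign turned positive in some alternatives, up to 0.17 without WT 2.

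Hk1 and Hk3, which encode other hexokinases, had lower or similar values in KO. Hk1, the form found in most cells, had 41.5, 43.5 and 40.9 CPM in KO, against 66.1, 51.9, 53.2 and 41.4 CPM in WT, giving a log2 fold change of -0.34 (standard error 0.17, adjusted p = 0.276 by edgeR). For Hk1 it was -0.44 without WT 4 and -0.51 without both WT 2 and WT 4, each time with an unadjusted p under 0.05. Without WT 1 it was -0.22, with an unadjusted p above 0.05. Hk3, a form of myeloid cells, had 2.92, 4.31 and 5.55 CPM in KO, against 13.1, 7.06, 8.28 and 6.55 CPM in WT. All Hk3 values of KO were below those of WT, giving a log2 fold change of -1.04 (standard error 0.33, adjusted p = 0.137 by edgeR). The summed level of 10 macrophage markers ran from 500 to 771 CPM in KO and from 1422 to 2227 CPM in WT, and its part in the Hk3 result was not tested. Adpgk, which phosphorylates glucose with ADP, had a log2 fold change of -0.03 (standard error 0.14).

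Gpi1 (Entrez 14751, chr7:34201327-34230336), which encodes the isomerase that makes fructose 6-phosphate, had 807, 572 and 631 CPM in KO, against 369, 495, 470 and 394 CPM in WT. Every KO value exceeded every WT value. Its log2 fold change was 0.63 (standard error 0.19, adjusted p = 0.126 by edgeR).

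Phosphofructokinase is built from liver-type (Pfkl), muscle-type (Pfkm) and platelet-type (Pfkp) subunits, which form tetramers in various mixtures. The 3 isoform genes lie on different chromosomes, Pfkl at chr10:77986947-78009807, Pfkm at chr15:98092589-98132447 and Pfkp at chr13:6579874-6649060. Their promoters are printed because the isoforms of this step are compared with each other. Each sequence covers 250 bases before and 50 after an annotated transcription start (RefSeq, GRCm38.p6), on the strand of the gene. Of 4 annotated Pfkm starts the most upstream is shown. Capitals mark ACGTG or GCGTG on either strand, the core letters bound by hypoxia-inducible factors, and CACGTG, the E-box, which contains the first of these.
Pfkl, chr10:78009758-78010057, minus strand: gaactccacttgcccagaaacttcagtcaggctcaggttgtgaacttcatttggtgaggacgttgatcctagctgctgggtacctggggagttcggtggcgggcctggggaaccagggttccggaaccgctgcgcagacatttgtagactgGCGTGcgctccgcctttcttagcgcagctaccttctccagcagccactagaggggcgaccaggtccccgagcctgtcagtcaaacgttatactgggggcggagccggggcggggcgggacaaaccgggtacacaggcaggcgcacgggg
Pfkm, chr15:98092339-98092638, plus strand: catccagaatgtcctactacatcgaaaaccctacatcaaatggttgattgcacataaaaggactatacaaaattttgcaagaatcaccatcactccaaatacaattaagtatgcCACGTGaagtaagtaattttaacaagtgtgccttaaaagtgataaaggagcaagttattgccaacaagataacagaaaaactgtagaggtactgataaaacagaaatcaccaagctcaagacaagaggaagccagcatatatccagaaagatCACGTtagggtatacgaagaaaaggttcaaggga
Pfkp, chr13:6648722-6649021, minus strand: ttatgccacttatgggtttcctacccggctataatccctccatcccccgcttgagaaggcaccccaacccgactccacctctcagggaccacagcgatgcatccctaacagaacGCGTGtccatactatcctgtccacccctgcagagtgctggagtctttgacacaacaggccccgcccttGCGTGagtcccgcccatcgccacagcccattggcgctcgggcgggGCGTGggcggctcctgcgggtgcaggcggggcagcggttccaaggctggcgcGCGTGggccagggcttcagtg

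The Pfkl window held 1 match to the hypoxia core, starting 99 bases before the transcription start. The Pfkp window held 4 matches, and the Pfkm window held 3, of which 2 are the overlapping strands of 1 E-box. G and C made up 36.7% of this Pfkm window, 62.3% of the Pfkl window and 64.7% of the Pfkp window. The other Pfkm windows, not printed, had 53.7%, 59% and 53% G and C and held 2, 1 and 0 matches. Over all 10 genes, 15 of 19 annotated promoter windows held ACGTG or GCGTG, as did 43.8% of 32851 windows in the RefSeq table, which counts a gene once per annotated start. Some windows of Eno1, Aldoa and Pfkm overlap and count the same match again, so the 19 are not separate promoters. GGGCGG on either strand, the GC box, was in 11 of the 19 windows and in 35.7% of all. CACGTG was in 2 of the 19 and in 7.15% of all, and TATAAA on either strand was in 0 of the 19 and in 13.6% of all. A match describes letters and not binding.

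Of the phosphofructokinase genes only Pfkl had no overlap between the groups. Pfkl (Entrez 18641) had 579, 330 and 296 CPM in KO 1 to KO 3, against 155, 225, 216 and 198 CPM in WT 1 to WT 4. KO 1 stood well above KO 2 and KO 3, and all 3 lay above the WT libraries. The log2 fold change was 1.02 (standard error 0.26, adjusted p = 0.103 by edgeR), and it was 0.65 without KO 1 (adjusted p = 0.327 by edgeR). Pfkp (Entrez 56421) had 108, 103 and 145 CPM in KO, against 104, 132, 135 and 88.1 CPM in WT. The groups overlapped across nearly the whole range, giving a log2 fold change of 0.05 (standard error 0.20, adjusted p = 0.904 by edgeR). Its sign turned in several alternatives, among them total counts alone (-0.26) and leaving out KO 3 (-0.10).

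Pfkm (Entrez 18642) had 70.3, 47.3 and 42.4 CPM in KO, against 34.7, 32.1, 26.7 and 76.1 CPM in WT 1 to WT 4. WT 4 held the highest value of all 7 libraries, while WT 1 to WT 3 lay below every KO library. With all libraries the log2 fold change was 0.33 (standard error 0.37, adjusted p = 0.629 by edgeR). Without WT 4 it was 0.78 (edgeR adjusted p = 0.13), and without both WT 2 and WT 4 it was 0.80 (edgeR adjusted p = 0.223), each time with an unadjusted p under 0.05. In the fit with total counts alone it was -0.02.

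Pfkl was the main isoform in every library. Per kb of mRNA it made up 75.5%, 68.1% and 61.5% of phosphofructokinase transcripts in KO 1 to KO 3, against 52.9%, 58.4%, 58.1% and 52.6% in WT 1 to WT 4. Pfkp made up 12.6%, 19.2% and 27.1% in KO, against 31.8%, 30.8%, 32.6% and 21.1% in WT. Pfkm made up 11.4% to 12.7% in KO and 9.28% to 15.3% in WT 1 to WT 3, but 26.3% in WT 4. The Pfkl share was thus higher in each KO library than in any WT library, and the Pfkp share of KO 3 lay above that of WT 4. The family total was 206, 130 and 129 CPM per kb in KO, against 78.6, 103, 99.8 and 101 CPM per kb in WT.

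The isoform contrast itself was tested on the log2 ratio of counts within each library, which library scaling does not touch. Pfkl over Pfkp was 2.43, 1.68 and 1.03 in KO, against 0.58, 0.77, 0.68 and 1.17 in WT. KO 3 lay below WT 4, and the difference of means was 0.91, or 1.88-fold. An exact permutation test over the 35 splits, two-sided, gave p = 0.0571 and 0.171 after adjustment over the 3 pairs, where the smallest p possible is 0.0286. Pfkl over Pfkm differed by 0.54 (exact permutation p = 0.314, adjusted p = 0.471), with 3.04, 2.80 and 2.80 in KO and 2.16, 2.81, 3.02 and 1.38 in WT. Pfkm over Pfkp differed by 0.37 (exact permutation p = 0.543, adjusted p = 0.543). A different response of the isoforms was therefore not shown for any pair. Without WT 4 the differences of means were 1.03 for Pfkl over Pfkp, 0.22 for Pfkl over Pfkm and 0.81 for Pfkm over Pfkp.

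**Figure D2:**
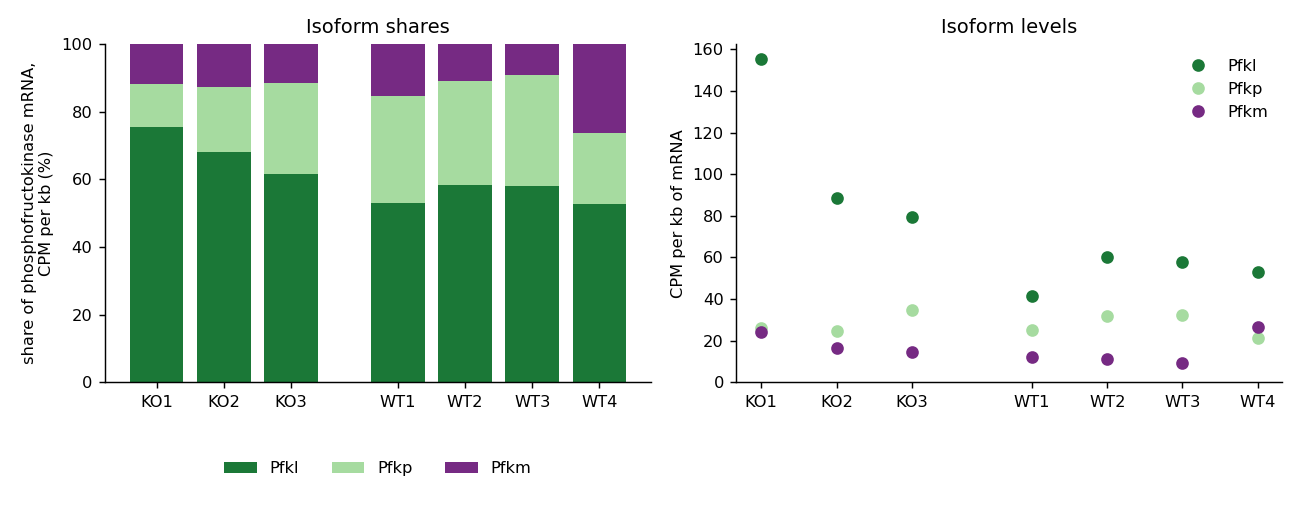
Left, share of each phosphofructokinase isoform in the family's mRNA (CPM per kb, percent) in each library, KO libraries left and WT libraries right. Right, the level of each isoform (CPM per kb of mRNA). The Pfkl share runs from 61.5% to 75.5% in KO and from 52.6% to 58.4% in WT, and WT 4 has the largest Pfkm share, 26.3%.

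The genes of the lower pathway had higher TMM-scaled values in KO without overlap. Aldoa (Entrez 11674, chr7:126795234-126800994), which encodes the aldolase of muscle and most other tissues, had 3978, 2562 and 3219 CPM in KO, against 1329, 2396, 2214 and 1574 CPM in WT. KO 2 lay close above WT 2, the highest of WT. For KO over WT this gave a log2 fold change of 0.79 (standard error 0.28, adjusted p = 0.166 by edgeR). The unadjusted p was above 0.05 when KO 1, WT 1 or WT 4 was left out. Aldoa accounted for 99.9% or more of aldolase mRNA per kb in every library. Aldoc, the brain-type aldolase, was barely counted, at 1.06 to 1.58 CPM in KO and 0.781 to 1.58 CPM in WT.

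The triose and phosphoglycerate steps behind aldolase are not among the 10 genes, and their values were higher in KO as well, without passing the threshold. Of 19 other glycolytic genes listed, 18 were in the table and 13 were tested, of which 4 had an unadjusted p under 0.05 and were higher and 1 was lower, beside 12.3% and 9.51% of all genes tested. Gapdh, the glyceraldehyde phosphate dehydrogenase gene, had 1144, 796 and 1177 CPM in KO, against 440, 742, 561 and 486 CPM in WT, giving a log2 fold change of 0.90 (standard error 0.24, adjusted p = 0.106 by edgeR). Pgk1, the phosphoglycerate kinase gene, had 0.69 (standard error 0.20, adjusted p = 0.123 by edgeR), and its groups did not overlap either. Tpi1, the triose phosphate isomerase gene, had 0.75 (standard error 0.24, adjusted p = 0.139 by edgeR), with KO 2 at 344 CPM below WT 2 at 356 CPM. Gapdh is often used to scale other transcripts, and here its KO mean was 1039 ± 211 CPM (SD, n = 3) against 557 ± 133 CPM in WT (SD, n = 4).

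Pgam1 (Entrez 18648, chr19:41911871-41918665), the phosphoglycerate mutase gene of most tissues, had the smallest p of the 10 genes. Its promoter window is shown for that reason, beside that of Ldha below, with the same marks.
Pgam1, chr19:41911621-41911920, plus strand: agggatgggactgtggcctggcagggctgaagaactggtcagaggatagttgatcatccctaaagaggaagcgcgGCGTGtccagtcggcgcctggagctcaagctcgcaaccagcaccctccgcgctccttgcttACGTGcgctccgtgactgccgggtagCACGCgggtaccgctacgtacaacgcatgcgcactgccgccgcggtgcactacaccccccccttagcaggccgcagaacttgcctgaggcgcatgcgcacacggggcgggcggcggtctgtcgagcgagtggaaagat
The window held 3 matches to the hypoxia core. Pgam1 had 414, 220 and 428 CPM in KO, against 161, 185, 190 and 164 CPM in WT. The WT libraries lay close together, and KO 2 lay between them and the other KO libraries. The log2 fold change was 1.02 (standard error 0.23, adjusted p = 0.0967 by edgeR). A processed copy of the gene, Pgam1-ps2, took 27.8% to 29.7% of the reads of the pair in KO and 26.6% to 29.1% in WT, and how shared reads were assigned to the pair is not known here. The summed level of both was 497 ± 164 CPM in KO (SD, n = 3) and 242 ± 21.4 CPM in WT (SD, n = 4). On the log2 scale the means of the sum differed by 0.98, and those of Pgam1 alone by 0.96.

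Eno1 (Entrez 13806, chr4:150236708-150248879) encodes alpha-enolase, the enolase of most tissues. It had 2516, 1566 and 1565 CPM in KO, against 854, 1182, 999 and 905 CPM in WT. All KO values were above WT, KO 1 most of all. For Eno1 the log2 fold change was 0.93 (standard error 0.24, adjusted p = 0.104 by edgeR). A near-identical gene, Eno1b, took 3.64% to 4.14% of the pair's reads in KO and 3.05% to 3.75% in WT, and the sum of both differed by 0.91, as did Eno1 alone. Eno2, the neuronal enolase gene, had 3.90 to 7.21 CPM in KO and 5.79 to 9.54 CPM in WT, giving a log2 fold change of -0.51 (standard error 0.28, adjusted p = 0.329 by edgeR).

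Pkm (Entrez 18746, chr9:59656576-59679372) encodes pyruvate kinases M1 and M2, which differ by an alternative exon and cannot be told apart in counts per gene. It had 1713, 1217 and 1276 CPM in KO, against 562, 1033, 1028 and 686 CPM in WT. The groups did not overlap, although WT 2 and WT 3 came near KO 2. The log2 fold change was 0.76 (standard error 0.27, adjusted p = 0.165 by edgeR), and the unadjusted p was above 0.05 without KO 1 or without WT 4. Pklr, the liver and red cell pyruvate kinase gene, had at most 11 counts in any library.

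Ldha (Entrez 16828, chr7:46842274-46855627) encodes the lactate dehydrogenase subunit that predominates in glycolytic tissue. Of its 2 annotated promoter windows the upstream one had more matches to the hypoxia core than any other window of the 10 genes, 7 in all, of which 4 belong to 2 E-boxes read on both strands.
Ldha, chr7:46845554-46845853, plus strand: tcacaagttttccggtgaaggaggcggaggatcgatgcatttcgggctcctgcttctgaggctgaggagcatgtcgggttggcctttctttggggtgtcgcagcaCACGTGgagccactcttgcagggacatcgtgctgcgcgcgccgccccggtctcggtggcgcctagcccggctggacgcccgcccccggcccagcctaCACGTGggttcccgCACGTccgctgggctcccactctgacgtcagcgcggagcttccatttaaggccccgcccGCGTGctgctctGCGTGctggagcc
Ldha had 1577, 1076 and 1509 CPM in KO, against 702, 976, 863 and 753 CPM in WT. KO 2 was again the lowest of KO and lay above all WT libraries. In the fit its log2 fold change was 0.75 (standard error 0.21, adjusted p = 0.114 by edgeR). Ldhb, the heart-type subunit gene, had 206, 91.3 and 138 CPM in KO, against 71.4, 117, 71.2 and 72.8 CPM in WT, with WT 2 above KO 2. Its log2 fold change was 0.80 (standard error 0.30, adjusted p = 0.177 by edgeR). It was 0.46 without KO 1, 1.01 without WT 2, and 1.02 without both WT 2 and WT 4. The Ldha share of lactate dehydrogenase mRNA per kb was 89.0% ± 2.35 in KO (SD, n = 3) and 89.1% ± 1.5 in WT (SD, n = 4), a difference smaller than the spread.

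**Figure D3:**
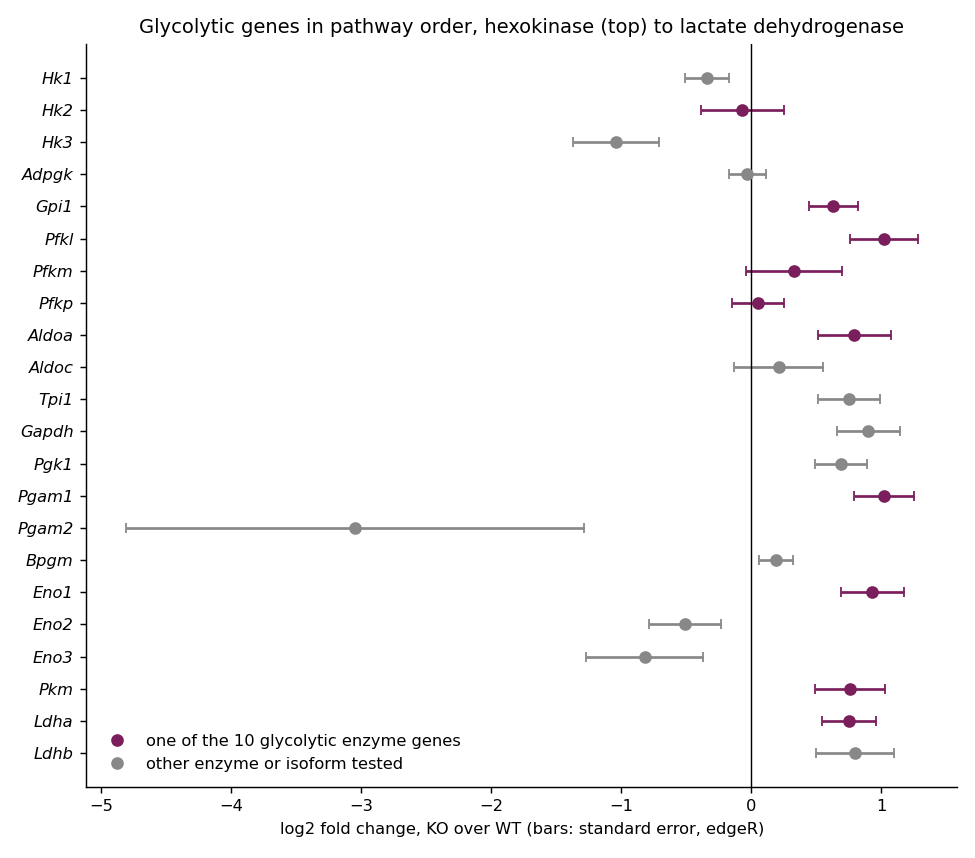
Log2 fold change of KO over WT (points) with its standard error (bars, derived from the edgeR F statistic) for glycolytic enzyme genes in pathway order. The genes at or above 0.63 are Gpi1, Pfkl, Aldoa, Tpi1, Gapdh, Pgk1, Pgam1, Eno1, Pkm, Ldha and Ldhb, while Hk2 (-0.07) and Pfkp (0.05) lie near 0.

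Skeletal muscle lies near this fat pad and uses the muscle isoforms. All 20 muscle markers were tested, and their summed level was 272, 146 and 75 CPM in KO 1 to KO 3, against 53.5, 778, 51 and 1945 CPM in WT 1 to WT 4. Myl1 made up much of the low sums, with 47.8 CPM in KO 3, 25.4 CPM in WT 1 and 36.5 CPM in WT 3. Its log2 fold change was 0.04, where the median of the 20 was -2.65, so low sums say little about muscle. Myh4, a fast myosin gene, had 42.4, 15 and 1.66 CPM in KO, against 96.1 CPM in WT 2, 355 CPM in WT 4 and 0 counts in WT 1 and WT 3. Ckm, the muscle creatine kinase gene, had 20.6, 7.46 and 1.58 CPM in KO, and 59.8 CPM in WT 2 and 176 CPM in WT 4, with 0 counts in WT 1 and 3 counts in WT 3. Tcap had 0 counts in WT 3 and Myh7 had 0 counts in KO 1. Acta1, the skeletal actin gene, had 40.1, 18.4 and 5.18 CPM in KO, against 14.3, 148, 0.883 and 233 CPM in WT. The muscle signal was thus concentrated in WT 4 and WT 2, with a lower one in KO 1.

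Pgam2 and Eno3 were highest in the same libraries, WT 4 and WT 2, whereas Pfkm was highest in WT 4 and KO 1 and stood at 32.1 CPM in WT 2, below every KO library. Pgam2, the muscle phosphoglycerate mutase gene, had 1.18, 0.704 and 0.312 CPM in KO, against 0.195, 7.55, 0 and 16.4 CPM in WT. Its log2 fold change was -3.05 (standard error 1.76, adjusted p = 0.344 by edgeR) with all libraries and 2.88 without WT 2 and WT 4, where the WT libraries held 12 and 0 counts. Eno3, the muscle enolase gene, had 27.5, 26.8 and 27.0 CPM in KO, against 27.7, 49.3, 23.1 and 91.8 CPM in WT, with -0.82 (standard error 0.45, adjusted p = 0.318 by edgeR) and 0.09 without WT 2 and WT 4. Eno3 lies at chr11:70653125-70662513, 141942 bases beyond the end of Tm4sf5. Eno3 made up 11.6% of enolase mRNA per kb in WT 4 and 1.40% to 2.18% in KO, and Pgam2 made up 17.5% of phosphoglycerate mutase mRNA per kb in WT 4 and 0.672% or less in KO. The part of muscle RNA in these values and in those of Pfkm was not tested.

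Aldoa, which muscle also uses, can be set beside the marker sum library by library. Aldoa was 3978, 2562 and 3219 CPM in KO 1 to KO 3, where the marker sums were 272, 146 and 75 CPM, and 1329, 2396, 2214 and 1574 CPM in WT 1 to WT 4, where they were 53.5, 778, 51 and 1945 CPM. KO 1 was highest in KO for both, while in WT the highest marker sum was in WT 4 and the highest Aldoa in WT 2. Without WT 2 and WT 4 the log2 fold change of Aldoa was 0.87 (edgeR adjusted p = 0.282), against 0.79 with them. Leaving out these libraries was chosen after the data were seen. The unadjusted p then stayed under 0.05 for all 7 genes named at the start, and Pfkm joined them. In that fit 8.55% of all genes tested were higher at that p, against 12.3% in the main fit.

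**Figure D4:**
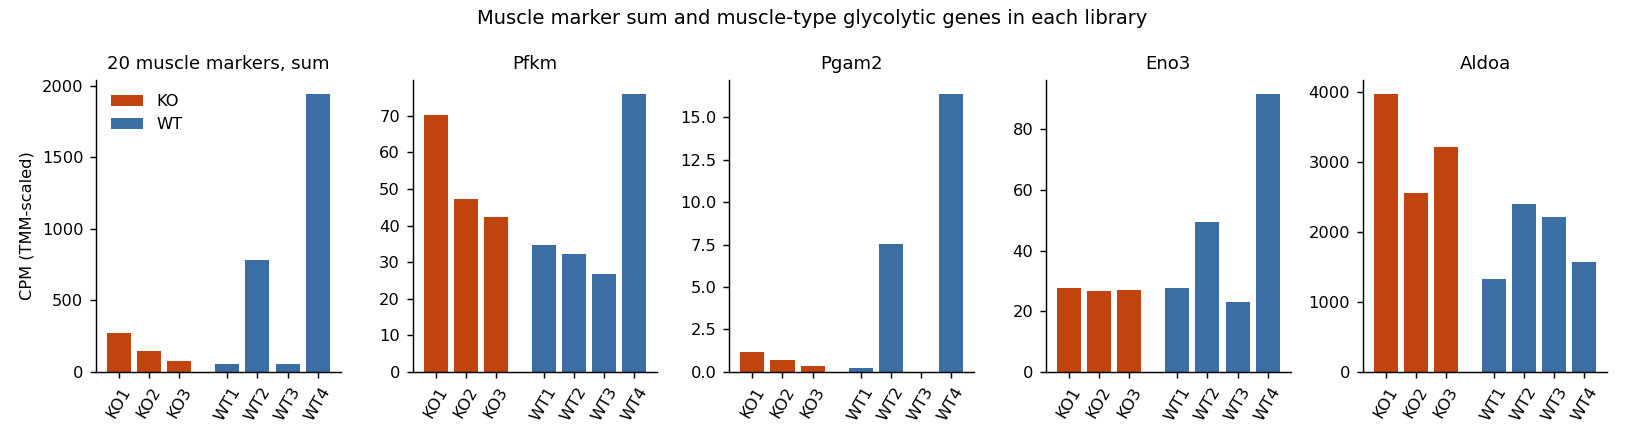
Summed CPM of 20 skeletal muscle markers, and CPM of Pfkm, Pgam2, Eno3 and Aldoa, in each library (bars, linear axes from 0; KO libraries left, WT libraries right). WT 4 has the highest marker sum (1945 CPM) and the highest Pfkm (76.1 CPM), Pgam2 (16.4 CPM) and Eno3 (91.8 CPM), while Aldoa is highest in KO 1 (3978 CPM) and stands at 1574 CPM in WT 4.

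Markers of some other cell types differed in value too. The sum of 10 white adipocyte markers was 19465 to 34406 CPM in KO and 11311 to 17325 CPM in WT. Fabp4 alone had 8313 to 12768 CPM in KO and 3749 to 5534 CPM in WT. Of the 10 markers, 7 had an unadjusted p under 0.05 and were higher. Lep, the leptin gene, went the other way, with a log2 fold change of -0.56 (standard error 0.70) and overlapping groups. The sum of 10 brown and beige markers was 2751, 801 and 1863 CPM in KO 1 to KO 3, and 302 to 1115 CPM in WT, with 6 of the 10 higher at that p. All 10 macrophage markers had an unadjusted p under 0.05 and were lower in KO. Of 10 B and T cell markers, 0 had such a p, and their sum was 466 to 1320 CPM in KO and 699 to 2090 CPM in WT. Of all genes tested, 12.3% were higher and 9.51% lower at that p. No marker in these lists passed the adjusted threshold with edgeR. Mitochondrially encoded genes took 16.1% to 18.9% of counts in KO and 8.07% to 12.1% in WT. The summed level of the 10 glycolytic genes was 12006, 7855 and 9314 CPM in KO 1 to KO 3, against 4448, 6966, 6388 and 4957 CPM in WT 1 to WT 4. In KO the brown and beige sum had the same order, while in WT that sum was lowest, at 302 CPM, in WT 2, where the glycolytic sum was highest. The part of cell composition in the glycolytic values was not tested. In bulk tissue, fewer cells of a type and less RNA per cell cannot be told apart.

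Among regulators of the pathway the values went both ways. Of 16 tested genes of flux control and gluconeogenesis, 3 had an unadjusted p under 0.05 and were higher, where 12.3% of all genes tested were, 2 were lower, where 9.51% were, and the median log2 fold change was 0.31. Pfkfb1, which makes and removes the phosphofructokinase activator fructose 2,6-bisphosphate, had 71.3, 53.5 and 53.7 CPM in KO, against 37.8, 33.6, 37.5 and 44.9 CPM in WT (log2 fold change 0.63, standard error 0.16, adjusted p = 0.102 by edgeR). G6pc3, a glucose 6-phosphatase gene, had 0.68 (standard error 0.16, adjusted p = 0.0967 by edgeR). Fbp2, the muscle-type fructose bisphosphatase gene, had 11.2, 4.42 and 3.91 CPM in KO, against 2.12, 1.5, 1.78 and 2.90 CPM in WT (log2 fold change 1.65, standard error 0.42, adjusted p = 0.104 by edgeR). Every KO value of Fbp2 was above every WT value, and WT 2 had the lowest. Fbp1, the liver-type gene, had 3, 0 and 0 counts in KO and 6, 15, 42 and 11 counts in WT, too few for a firm ratio. Hif1a, the oxygen-regulated subunit of the hypoxia-inducible factor, had 71.7, 89.0 and 90.1 CPM in KO, against 108, 95.8, 108 and 99.2 CPM in WT (log2 fold change -0.30, standard error 0.13, adjusted p = 0.24 by edgeR). Myc, a growth regulator that binds E-boxes, had 14.4, 18.2 and 20.3 CPM in KO, against 20.6, 31.1, 24.2 and 27.5 CPM in WT (log2 fold change -0.55, standard error 0.19, adjusted p = 0.158 by edgeR).

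Genes that act on the products of glycolysis had mostly higher values in KO. Of 16 tested genes of pyruvate entry and the glycerol branch, 12 had an unadjusted p under 0.05 and were higher, 1 was lower, and the median was 0.73, beside the same 12.3% and 9.51%. The mitochondrial pyruvate carrier genes had the smallest p-values among them, Mpc1 with 838, 554 and 651 CPM in KO against 238, 343, 360 and 299 CPM in WT (log2 fold change 1.14, standard error 0.21, adjusted p = 0.0956 by edgeR), and Mpc2 with 1.21 (standard error 0.24, adjusted p = 0.0956 by edgeR). Dld, a subunit of pyruvate dehydrogenase, had 0.76 (standard error 0.17, adjusted p = 0.0967 by edgeR). Gpd1, which draws off triose phosphate to make glycerol 3-phosphate and has been named here after its values were seen, had 5964, 3225 and 5780 CPM in KO, against 1986, 2266, 2293 and 2552 CPM in WT (log2 fold change 1.13, standard error 0.27, adjusted p = 0.0967 by edgeR). The kinases that inhibit pyruvate dehydrogenase differed in direction. Pdk1, Pdk2 and Pdk4 are named after their values were seen, and their KO values were all above their WT values. Pdk2 had 234 ± 67.2 CPM in KO (SD, n = 3) and 94.3 ± 33.9 CPM in WT (SD, n = 4), with a log2 fold change of 1.31, the largest in the list (adjusted p = 0.0967 by edgeR). Pdk1 had 0.55 (adjusted p = 0.098 by edgeR), and Pdk4 had 1.02 (adjusted p = 0.336 by edgeR). Pdk3 had 5.39, 5.28 and 7.59 CPM in KO against 8.88, 10.7, 10.6 and 13.3 CPM in WT (log2 fold change -0.83, standard error 0.22, adjusted p = 0.105 by edgeR). Pdp1, a phosphatase of the same complex, had -0.27 (standard error 0.19, adjusted p = 0.447 by edgeR).

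In the pentose phosphate branch 3 of 8 genes had an unadjusted p under 0.05 and were higher, and 0 were lower, with a median of 0.52, beside the same shares of all genes. Taldo1, the transaldolase gene, had 912, 590 and 642 CPM in KO, against 309, 383, 392 and 407 CPM in WT (log2 fold change 0.94, standard error 0.20, adjusted p = 0.0956 by edgeR). Pgls had 0.54 (standard error 0.18, adjusted p = 0.153 by edgeR), Rpe had 0.32 (standard error 0.14, adjusted p = 0.227 by edgeR) and Rpia had -0.19 (standard error 0.28, adjusted p = 0.718 by edgeR). Of 8 transporter genes 3 were higher and 2 lower at that p, with a median of 0.37, beside 12.3% and 9.51% of all genes tested. Bsg, the chaperone of lactate transporters, had 0.67 (SE 0.18), the intracellular glucose transporter gene Slc2a8 had 0.63 (SE 0.20) and the lactate transporter gene Slc16a1 had 0.74 (SE 0.28). The glucose transporter gene Slc2a1 had -0.49 (SE 0.16), and Slc2a3, whose groups overlapped and whose unadjusted p was above 0.05, had -0.36 (SE 0.27), while the lactate exporter gene Slc16a3 had 1.18 ± 0.265 CPM in KO (SD, n = 3) and 2.65 ± 1.03 CPM in WT (SD, n = 4). None of the genes in these lists passed the adjusted threshold with edgeR.

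**Figure D5:**
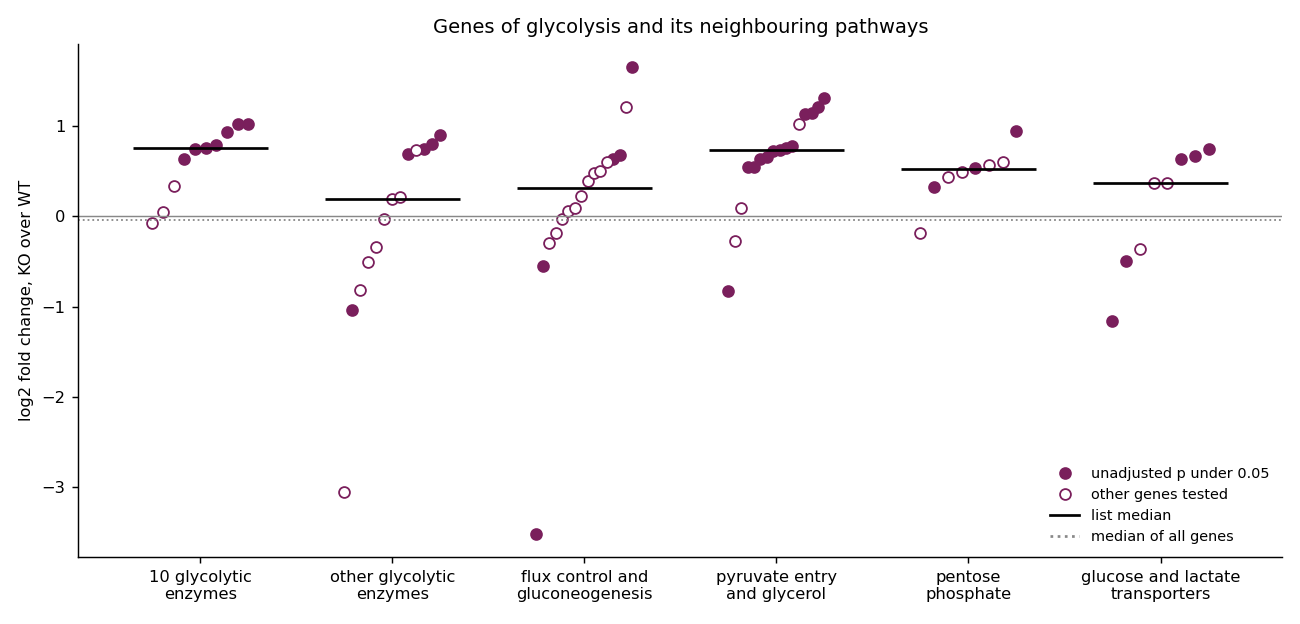
Log2 fold change of KO over WT for the genes tested in each list (points; filled, unadjusted edgeR p under 0.05), with the list median (line) and the median of all genes tested (dotted, -0.04). The medians are 0.76 for the 10 glycolytic enzymes, 0.19 for other glycolytic enzymes, 0.31 for flux control and gluconeogenesis, 0.73 for pyruvate entry and glycerol, 0.52 for pentose phosphate and 0.37 for transporters.

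The profiles most like the phosphofructokinase isoforms were looked up among 10098 genes with a mean of at least 10 CPM, by the root mean square difference of log2 CPM centred over the 7 libraries. For Pfkl, whose log2 CPM spanned 1.90, the nearest was Aacs, the acetoacetyl-CoA synthetase gene, at 0.1. Aacs had 757, 448 and 373 CPM in KO, against 203, 315, 321 and 307 CPM in WT, and so shared the high value of KO 1 and the low one of WT 1. The next were Gpx4-ps2 at 0.127 and Gcat at 0.145. For Pfkm, which spanned 1.51, they were Pde4dip (0.214), Srl (0.216) and Pik3c3 (0.24), all highest in WT 4. For Pfkp, which spanned 0.72, they were Commd10 (0.0741), Ppp2r1b (0.0813) and Tiparp (0.0841). These are descriptions over 7 libraries that share their scaling.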

How the data were processed

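Per the submitters' processing notes, bcl2fastq 2.20.0, Trimmomatic, HISAT2 2.1.0 with mm10, StringTie 1.3.4d and DESeq2 were used. RNA came from Trizol extraction and a TruSeq stranded mRNA kit, per the labels' protocols. Not given in the sources used here were the annotation, the counting rule and whether strand was used. The deposited table holds raw read counts per Entrez gene from the authors. Symbols came from RefSeq GRCm38.p6, which matched 29444 of 29517 identifiers, and mRNA lengths from GENCODE for the same assembly (the longest principal transcript with a curated RefSeq mRNA).

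The fits ran in R 4.3.3 with edgeR 4.0.16. Low genes were removed with filterByExpr at its minimum count of 10, and libraries were scaled by TMM, the trimmed mean of M-values, and tested by the quasi-likelihood F-test without covariates, with Benjamini-Hochberg adjustment over 19185 genes. Standard errors were derived from that test, as the absolute log2 fold change divided by the square root of its F statistic. Alternatives used DESeq2 1.42.0, limma 3.58.1 (voom) and other scalings, filters and sets of libraries. The fitting functions alone were tested on counts simulated with known fold changes. That simulation had no outlying libraries such as those high in muscle markers, so it does not bear on how the tools handle them. The replicates are called biological in the design text, which speaks of 3 per condition, while the labels list 3 KO and 4 WT samples. All were used. Correlations of log2 CPM between libraries ran from 0.925 to 0.977, and no pair agreed within sampling noise (chi-square per degree of freedom 105 or more).

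Named besides the 10 genes were Tm4sf5, up to 3 genes a direction with the smallest p in each pathway list, and the nearest profiles. The rule also took isoforms of the same steps with a mean of 1 CPM or more. It took 3 defining muscle markers and muscle markers without counts in a library. Outside this rule, Adpgk, Pklr, Bpgm, Fabp4, Lep, Myl1, Eno1b and Pgam1-ps2 were named, as were Gpd1, Pdk1, Pdk2 and Pdk4. The genes and lists were chosen with earlier results of these data known. A result on another isoform of these steps is not reported here.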

Additional observations from a re-analysis of the deposited data

Results flagged for a closer look

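Among the 4 WT libraries, WT 4 lay far from the other libraries for Pfkm, at 76.1 CPM, with a gap of 0.838 of the group's whole range above Dixon's critical value for 4 samples. The summed muscle markers were also highest in WT 4, at 1945 CPM, and so were the summed B and T cell markers, at 2090 CPM. WT 2, with a muscle marker sum of 778 CPM, had 32.1 CPM of Pfkm. The part of either cell type was not tested. WT 2 lay far from the others for Ldhb, at 117 CPM, with a gap of 0.966 of the range. These were 2 cases among 21 quantities examined in WT, and chance flags about 1 in 20 groups. The KO group of 3 was not examined in this way.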

How the results depend on the processing

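At an adjusted p under 0.05 edgeR called 0 genes, DESeq2 called 2120, limma-voom called 1 and total counts alone called 1. Leaving out 1 library at a time gave 0 calls each time. The 7 genes with an unadjusted p under 0.05 became 3 with total counts alone (Eno1, Pfkl and Pgam1), 5 with the replicate block, and 5 to 7 with 1 library left out. Leaving out both WT 2 and WT 4, an alternative chosen after the data were seen, made them 8. Of the single libraries left out, KO 1 gave 5, WT 1 gave 6, and WT 4 gave 6, of which 5 were shared with the 7. The share of all genes tested that were higher at that p changed as well. It was 12.3% in the main fit, 3.62% with total counts alone and 8.71% with the replicate block. Without KO 1 it was 6.94%, without WT 1 12.7%, without WT 4 11.1%, and without both WT 2 and WT 4 8.55%. With total counts alone, 694 genes were higher and 4871 lower at an unadjusted p under 0.05, against 2363 and 1824 with TMM. The median of all genes moved by -0.31 then, and relative to that median Pfkl was at 1.01, Pgam1 at 1.05 and Pkm at 0.77. Signs turned for Hk2 with limma-voom (0.01), for Pfkm with total counts alone (-0.02), and for Pfkp with total counts alone (-0.26), the replicate block (-0.06) and both WT 2 and WT 4 left out (-0.01). With 1 library left out, Hk2 ran from -0.27 to 0.17 and Pfkp from -0.10 to 0.16. The other 7 genes stayed above 0 in the 16 alternatives tried. Pfkl over Pfkp stayed positive, from 0.55 without KO 1 to 1.25 without KO 3, in tests that with 6 libraries cannot give an exact p below 0.0667.

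Same-numbered KO and WT libraries did not pair: their deviations correlated at 0.223, -0.171 and -0.0184, and 1 of 3 KO libraries correlated best with its own number. Under the replicate block the unadjusted p passed for Eno1, Ldha, Pfkl, Pfkm and Pgam1. Depth limits little here for the 10 genes, but Fbp1, Pklr and Pgam2 rest on few counts in some libraries.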

Other observations

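Bpgm, which makes the 2,3-bisphosphoglycerate of red cells, had 20.5, 18.7 and 17.7 CPM in KO, against 15.3, 17.1, 18.3 and 15.9 CPM in WT (log2 fold change 0.19, standard error 0.13, adjusted p = 0.441 by edgeR). The summed level of 5 erythroid markers was 427 to 539 CPM in KO and 225 to 825 CPM in WT, highest in WT 2 and WT 3. The summed level of 8 epithelial markers was 17.7, 5.79 and 9.58 CPM in KO, against 4.25 to 6.09 CPM in WT.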
